A study of Mus musculus with 24 samples.

Results

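The genes described here run the Ran transport cycle, which moves proteins and RNA between nucleus and cytoplasm, and Ranbp1 is the member that lies within the Df(16)A deletion. The 9 genes listed for the cycle were chosen by symbol, with earlier results of these data known. They were Ranbp1, Ran, Rcc1, Rangap1, Ranbp2, Ranbp3, Xpo1, Kpnb1 and Nutf2. Of these, 8 had a probe set with a single gene symbol, among 18821 genes measured, each through 1 such row. Nutf2, the carrier that returns Ran to the nucleus, was not analysed here. The mutant group held 12 male Df16(A)+/- mice, heterozygous for an engineered deletion on chromosome 16 that corresponds to the human 22q11.2 microdeletion, and the other group 12 male WT littermates. All were 8 weeks old on a C57BL6/J background, and no further allele or agent is named for either genotype. The deletion removes a single copy of many genes together, so a change elsewhere cannot be assigned to the lost copy of Ranbp1. RNA came from whole dissected prefrontal cortex, 1 Affymetrix array per mouse, and values are log2 expression.

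Ran is a small GTPase that is kept in its GTP form in the nucleus and in its GDP form in the cytoplasm. Rcc1, bound to chromatin, loads Ran with GTP, while Rangap1, helped by Ranbp1 and Ranbp2, makes Ran hydrolyse that GTP on the cytoplasmic side of the nuclear pore. Import receptors such as Kpnb1 drop their cargo when they meet the GTP form, and export receptors such as Xpo1 need it to hold theirs. In rat sensory neurons, importins and Ranbp1 are also known in axons, where they take part in the signal that reports nerve injury to the cell body.

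The start region of Ranbp1 is shown because it is shared with that of Trmt2a, a transfer RNA methyltransferase gene that is deleted with it. The genes were once named Htf9a and Htf9c and are transcribed away from each other. In RefSeq sequences of assembly GRCm38.p6, the window of 250 bases before and 50 after the start lies at chr16:18248645-18248944 on the minus strand for Ranbp1 and at chr16:18248633-18248932 on the plus strand for Trmt2a. The windows overlap by 288 bases, all identical after reverse complementing, and the starts lie 189 bases apart. Both are printed 5′ to 3′ on the strand of the gene, with capitals for a match to the searched letters of an E2F-type motif. Factors that bind this motif control genes of cell proliferation.
Ranbp1: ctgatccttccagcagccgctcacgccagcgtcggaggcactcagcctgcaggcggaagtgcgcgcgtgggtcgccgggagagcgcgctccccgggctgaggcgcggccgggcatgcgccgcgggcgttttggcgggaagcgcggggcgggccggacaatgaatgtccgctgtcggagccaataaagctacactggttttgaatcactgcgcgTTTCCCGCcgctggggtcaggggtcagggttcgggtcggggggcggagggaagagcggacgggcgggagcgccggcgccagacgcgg
Trmt2a: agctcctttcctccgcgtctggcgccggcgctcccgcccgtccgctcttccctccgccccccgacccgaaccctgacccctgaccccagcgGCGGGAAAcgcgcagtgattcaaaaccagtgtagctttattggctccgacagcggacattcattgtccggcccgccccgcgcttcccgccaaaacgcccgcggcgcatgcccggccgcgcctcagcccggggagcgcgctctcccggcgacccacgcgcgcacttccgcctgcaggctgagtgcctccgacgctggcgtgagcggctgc

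The motif search used the letters TTTCCCGC, TTTCGCGC, TTTGCCGC and TTTGGCGC on both strands, and the windows of Ranbp1 and Trmt2a each held 1 match, which is the same 8 bases of DNA read from opposite strands. A match was present in 2.26% of 32851 such windows of the genome, and in none of the windows found for Ran, Rcc1, Rangap1, Ranbp2, Xpo1 and Kpnb1. The Ranbp1 window also held 3 GC boxes (GGGCGG), a motif present in 35.7% of windows, and 1 CCAAT box (CCAAT), present in 37.4%. Its 42 CpG dinucleotides exceeded the number in 97.0% of windows. Across the other genes named, the CpG number ran from 15 (Rcc1) to 58 (Ran). The Ran window held 4 GC boxes, and that of Kpnb1 held 3 GC boxes and 3 CCAAT boxes, while that of Ranbp2 held 0 of either. These matches describe letters and not bound sites, and other forms of the E2F-type motif were not searched.

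The 24 arrays were alike, with pairwise correlations over all genes between 0.994 and 0.997, and no array was identical to another. The arrays carried a clear signal of neurons. Over 5 measured markers listed for cortical excitatory neurons (Slc17a7, Neurod6, Tbr1, Camk2a and Snap25), the mean was 12.1 to 12.2 in mutants and 12.1 to 12.2 in WT mice. A mean over this list does not separate excitatory from other neurons. In whole tissue, fewer cells of a type and less RNA per cell cannot be told apart. The mutant arrays of replicates 5, 9 and 10 lie farthest out on the first principal component. Over all genes, 43 (0.228%) were lower and 100 (0.531%) higher in mutants at an adjusted p under 0.05 by limma.

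Ranbp1 was lower in every mutant. Its log2 level had a lowest, median and highest value of 9.66, 9.80 and 9.88 in mutants, against 10.42, 10.54 and 10.67 in WT mice. The groups were separated by 0.54 log2 units between the highest mutant and the lowest WT mouse. Such complete separation with mutants below was seen in 0.106% of all genes (20 genes). Most of those 20 genes are listed for the deleted interval, as Ranbp1 is, so the separation is not particular to it. The mean was 9.78 ± 0.07 in mutants and 10.55 ± 0.08 in WT mice (SD, n = 12 each). The log2 fold change was -0.77 ± 0.03 (SE; limma, adjusted p = 9.69e-16), so that the mutant level was 58.8% of WT with a 95% interval of 56.2% to 61.4%. The interval lay above the 50% that the loss of 1 of 2 copies gives on a strictly proportional scale. The same held for every other gene listed for the deletion that passed as lower, down to Slc25a1 (fold change 0.545, 95% interval -0.94 to -0.81 in log2 units). It held too for the 6 of 26 measured genes listed that did not pass, where it only restates the lack of a detected decrease. An interval above 50% is therefore not particular to Ranbp1. Taken separately, arrays 1 to 12 gave -0.80 ± 0.04 and arrays 13 to 24 gave -0.76 ± 0.05, and the value stayed between -0.78 and -0.76 when each mouse was left out in turn. Ranbp1 was the 1 of 8 measured Ran cycle genes that passed the test, which 0.76% of all genes passed in either direction.

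**Figure D1:**
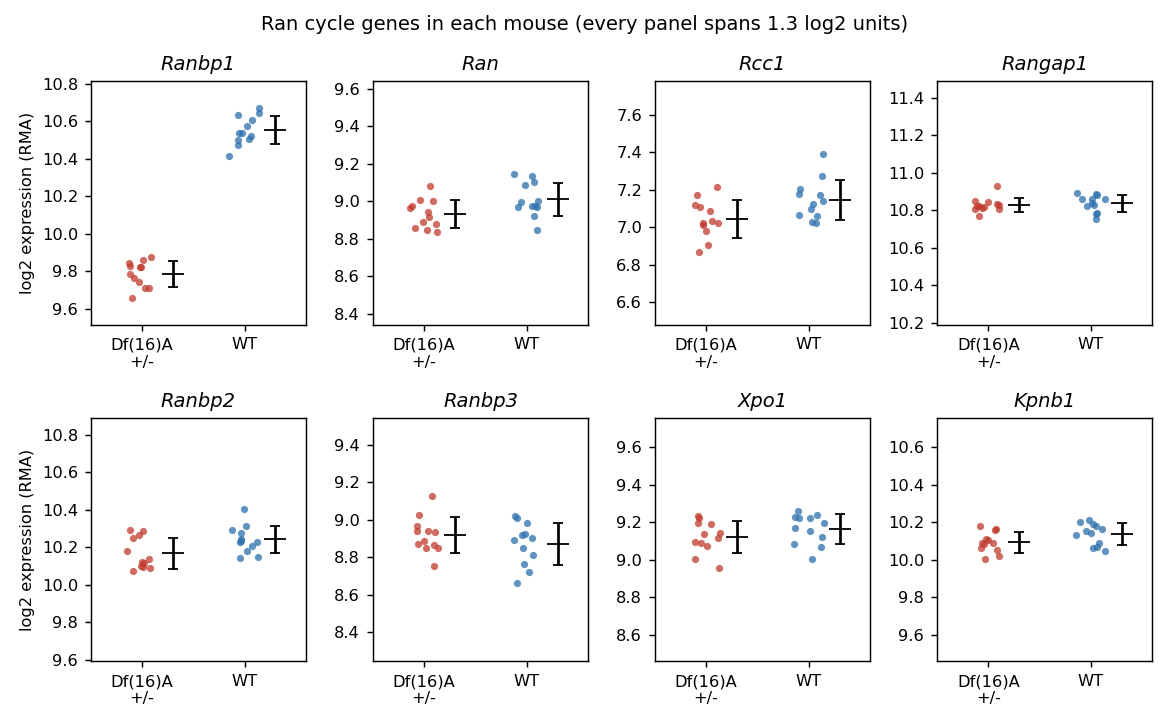
Log2 expression (vertical axis, RMA values) of the 8 measured Ran cycle genes, 1 point per mouse, with Df(16)A+/- mice on the left and WT mice on the right of each panel; the black marks are the mean and SD of 12 mice. The Ranbp1 points form groups that are far apart (9.66 to 9.88 in mutants, 10.42 to 10.67 in WT mice), while the points of the other 7 genes overlap between genotypes.

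The decrease of Ranbp1 was then set against that of the genes deleted with it, within the same mice, which asks whether Ranbp1 stands apart among them. Ranbp1 had the 7th largest decrease of 26 measured genes listed for the interval. Differences were tested as the difference between Ranbp1 and the other gene in each mouse (permutation test, two-sided, 100000 resamples, adjusted over 25 pairs). Of the 25 genes, 7 had WT means of 5.10 to 6.56, below the median of every array (6.71 at the lowest). Rows this dim can show little of a decrease, so their differences mostly restate that of Ranbp1 and are not read. Among them, Cdc45 (log2 fold change -0.30 ± 0.04, SE, limma, adjusted p = 5.81e-05) and Gnb1l (-0.27 ± 0.03, adjusted p = 1.21e-05) still passed as lower between genotypes. Among the 18 brighter genes, the decrease of Ranbp1 was larger than that of 6 and smaller than that of 2, and for 10 the test was not passed. Those 2, named after their values were seen, were Ufd1, a cofactor of the p97 segregase (difference 0.11 ± 0.03 on the log2 scale, SE, adjusted p = 0.00365), and Slc25a1, the mitochondrial citrate carrier (0.11 ± 0.04, adjusted p = 0.0252); neither passed over arrays 13 to 24 alone. Among the 6, Mir185 did not itself pass between genotypes (log2 fold change -0.16 ± 0.06, SE, limma, adjusted p = 0.320), at a WT mean of 7.77. Its difference thus also mostly restates the decrease of Ranbp1. The fold changes of different probe sets share no calibration, so a smaller fold change need not be a smaller change in RNA.

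Trmt2a, which shares the start region printed above, had a lowest, median and highest value of 7.21, 7.30 and 7.47 in mutants, against 7.73, 7.96 and 8.22 in WT mice, again without overlap. Its log2 fold change was -0.68 ± 0.04 (SE; limma, adjusted p = 1.63e-11). The difference Ranbp1 minus Trmt2a in log2 fold change was -0.09 ± 0.05 (SE), which did not pass the permutation test (adjusted p = 0.167). After removal of the genotype means, the deviations of Ranbp1 and Trmt2a across 24 mice had a correlation of 0.02. It was -0.01 over the 12 mutants and 0.05 over the 12 WT mice.

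The genes closest to Ranbp1 in size of decrease were Tango2 (difference 0.0032 ± 0.04 on the log2 scale, SE), a gene linked to metabolic crises in humans, Mrpl40 (-0.0053 ± 0.04), a protein of the mitochondrial ribosome, and Dgcr2 (0.03 ± 0.03), an adhesion receptor-like protein. The genes farthest from it were among the dim ones, with mean log2 levels of 6.26 in mutants and 6.20 in WT mice for Gsc2, a homeobox gene, 5.74 in mutants and 5.74 in WT mice for Vpreb2, a surrogate light chain of B cell precursors, and 5.26 in mutants and 5.29 in WT mice for Tssk2, a kinase of the testis. None of those 3 passed the test between genotypes, and at these levels a decrease may not be measurable. Dgcr8, the next gene after Trmt2a and the partner of Drosha in miRNA processing, had a difference of -0.23 ± 0.05 (adjusted p = 0.00025).

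**Figure D2:**
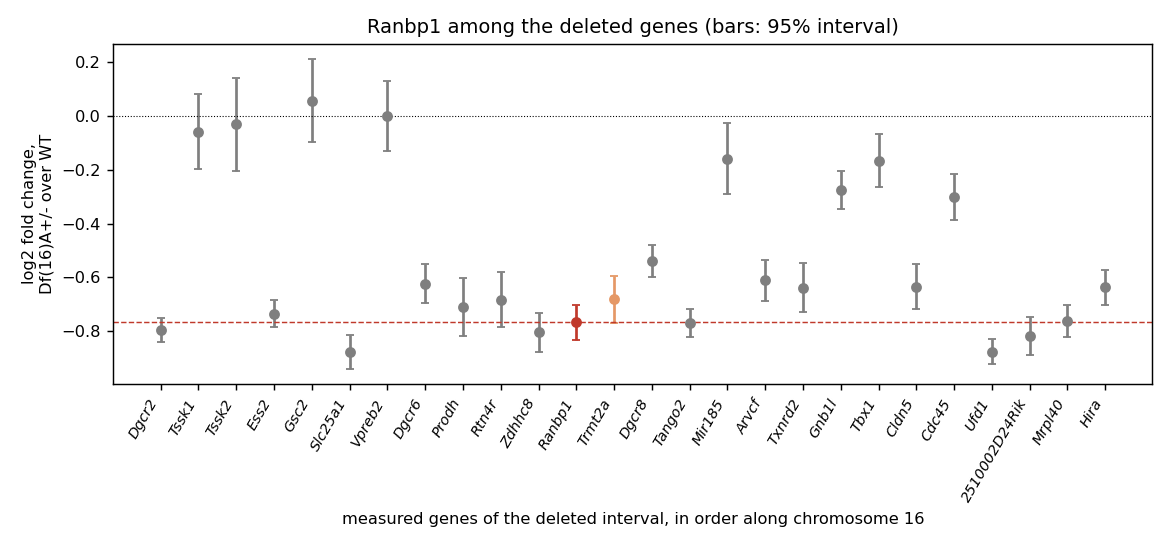
Log2 fold change of Df(16)A+/- over WT mice (vertical axis) for the 26 measured genes listed for the deleted interval, in their order along chromosome 16 (horizontal axis); points are limma estimates from 12 mice per genotype and bars their 95% intervals. Ranbp1 (red, with a dashed line at its value of -0.77) lies 7th from the bottom, next to Trmt2a (orange, -0.68), and the genes near 0 include Gsc2, Vpreb2, Tssk1 and Tssk2, whose levels lie below the median of every array.

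None of the 7 measured partners of Ranbp1 passed the test at a threshold of 0.05 on the adjusted p, which 0.76% of all genes passed. Their log2 fold changes lay between -0.10 and 0.05 with a median of -0.04, against a median of -0.001 over all genes. At an unadjusted limma p under 0.05, 3 of them (Rcc1, Ran and Ranbp2) were lower, where 5.82% of all genes were. That count depended on the scaling and on single groups of arrays: 1 partner (Rcc1) was left after quantile normalization or median centring, and 1 (Ranbp2) without the mutants of replicates 5, 9 and 10.

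The GTPase itself, Ran, had a lowest, median and highest log2 value of 8.84, 8.93 and 9.08 in mutants, against 8.85, 8.98 and 9.15 in WT mice. The ranges overlapped almost completely, although 9 of 12 mutants lay below the WT median. Its log2 fold change was -0.08 ± 0.03 (SE; limma, adjusted p = 0.376), and the 95% interval ran from 90.2% to 99.6% of WT.

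Rcc1, the exchange factor that makes RanGTP on chromatin, had values of 6.87, 7.03 and 7.22 in mutants, against 7.02, 7.13 and 7.39 in WT mice. With 6 of 12 mutants below the lowest WT mouse, its log2 fold change of -0.10 ± 0.04 (SE; limma, adjusted p = 0.337) was the lowest among the partners. It was -0.03 ± 0.05 over arrays 1 to 12 alone and -0.17 ± 0.07 over arrays 13 to 24 alone; the difference between these sets of arrays did not pass the test (limma interaction, adjusted p = 0.829).

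Rangap1, which switches Ran off, varied least among the mice, at 10.77, 10.82 and 10.93 in mutants, against 10.75, 10.85 and 10.89 in WT mice. The groups overlapped throughout. Its log2 fold change was -0.0086 ± 0.02 (SE; limma, adjusted p = 0.908), and the interval of 96.5% to 102% of WT was the narrowest of the 7. Its sign turned under quantile normalization and median centring.

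Ranbp2, the large nucleoporin of the cytoplasmic filaments that holds Rangap1 at the pore, had values of 10.08, 10.13 and 10.29 in mutants, against 10.14, 10.23 and 10.41 in WT mice. There, 7 of 12 mutants lay below the lowest WT mouse and the other 5 lay within the WT range. The log2 fold change was -0.07 ± 0.03 (SE; limma, adjusted p = 0.379). It was -0.07 ± 0.05 over arrays 1 to 12 alone and -0.06 ± 0.05 over arrays 13 to 24 alone.

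Ranbp3, a nuclear cofactor that helps Xpo1 bind its cargo, had values of 8.75, 8.91 and 9.13 in mutants, against 8.66, 8.90 and 9.02 in WT mice. It was the 1 partner with a log2 fold change above 0, at 0.05 ± 0.04 (SE; limma, adjusted p = 0.704). The groups overlapped, and the interval reached 110% of WT, the highest upper bound among the partners.

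The receptors of the cycle overlapped between genotypes as well. Xpo1, the export receptor for proteins with a leucine-rich signal, had values of 8.96, 9.13 and 9.24 in mutants, against 9.01, 9.18 and 9.26 in WT mice, with a log2 fold change of -0.04 ± 0.03 (SE; limma, adjusted p = 0.670). Kpnb1, importin beta, had values of 10.003, 10.09 and 10.18 in mutants, against 10.05, 10.15 and 10.21 in WT mice, with a log2 fold change of -0.04 ± 0.03 (SE; limma, adjusted p = 0.520). For Kpnb1 it was -0.09 ± 0.04 over arrays 1 to 12 alone and -0.0056 ± 0.04 over arrays 13 to 24 alone, and the difference between these did not pass the test (limma interaction, adjusted p = 0.813). The upper bounds of the intervals were 102% of WT for Xpo1 and 101% for Kpnb1.

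**Figure D3:**
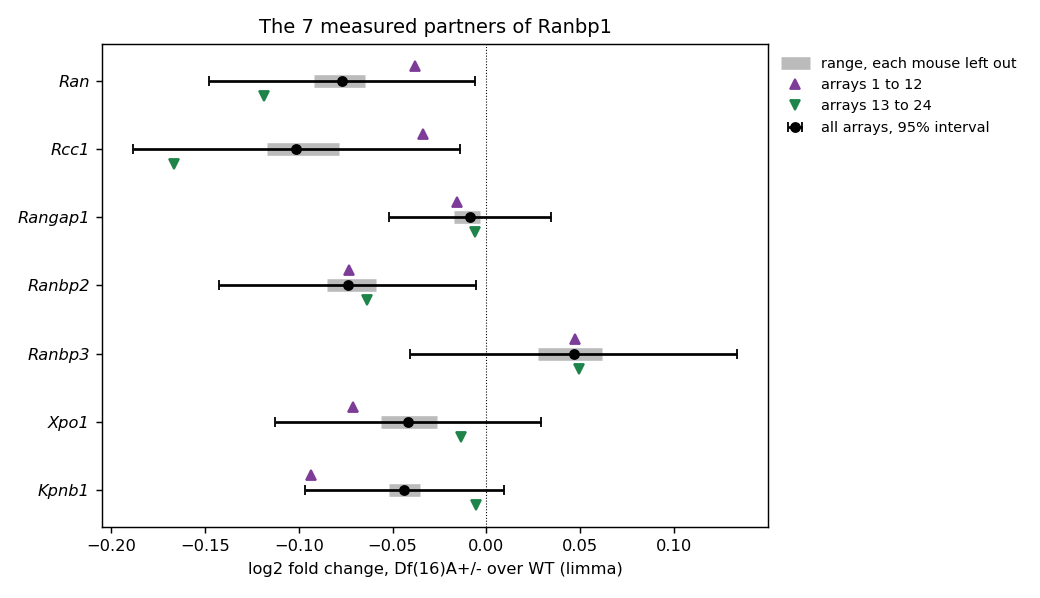
Log2 fold change of Df(16)A+/- over WT mice (horizontal axis) for the 7 measured partners of Ranbp1; black points with bars are limma estimates with 95% intervals over 24 arrays, grey bands the range when each mouse was left out, and triangles the values over arrays 1 to 12 (purple) and 13 to 24 (green). All estimates over 24 arrays lie between -0.10 and 0.05, and Rcc1 and Kpnb1 show the widest spread between the sets of arrays.

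In each mouse Ranbp1 was also measured against each partner, which tests the difference in fold change itself. The log2 fold change of Ranbp1 lay below that of every partner, by 0.67 (Rcc1) to 0.81 (Ranbp3) on the log2 scale (permutation test, two-sided, 100000 resamples, p = 1e-05 for each of 7 pairs, the smallest that the resamples can give). For all 7 pairs, the 12 mutants lay below the 12 WT mice in that difference. Most of each difference is the decrease of Ranbp1 itself.

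The wider transport machinery was followed through lists of related genes. Of 75 further genes with a value, 1 rose, none fell and 74 did not pass, where 0.531% of all genes rose and 0.228% fell. At these shares, the absence of a call in the short lists below is not read as a result about them. The values of 60 of the 75 (80.0%) lay below 0, with a median log2 fold change of -0.03, against 51.0% of all genes. With the 7 partners added, 66 of 82 (80.5%) lay below 0. Among genes at or above the median level, where 64.8% of all genes lay below 0, it was 56 of 68 (82.4%). It was 54 of 82 (65.9%) after quantile normalization, where 51.2% of all genes lay below 0, and again 54 after median centring, where 40.8% did. These counts describe signs of small values from shared arrays, and no test was made of them.

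The 6 importin alpha adaptors link Kpnb1 to cargo with a nuclear localisation signal. All 6 log2 fold changes were negative (median -0.05), but none passed. Kpna1, an adaptor abundant in the brain, had a log2 fold change of -0.07 ± 0.03, Kpna4 one of -0.06 ± 0.03, Kpna6 one of -0.05 ± 0.03 and Kpna3 one of -0.04 ± 0.03 (SE; limma, adjusted p between 0.404 and 0.537). Of 11 other import receptors none passed and 9 were negative, with a median of -0.02. Ipo7, an importer of ribosomal proteins and other cargo, had the smallest p of all the lists below 0, with a log2 fold change of -0.10 ± 0.03 (SE; limma, adjusted p = 0.173), values of 9.68, 9.75 and 9.94 in mutants, against 9.73, 9.90 and 9.98 in WT mice, and 5 of 12 mutants below the lowest WT mouse. Ipo11 had -0.07 ± 0.03, Ipo9 -0.02 ± 0.02 and Ipo5 -0.03 ± 0.03.

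Of 6 other export receptors none passed and 5 lay below 0. Xpo5, which carries miRNA precursors out of the nucleus with RanGTP, had a log2 fold change of -0.06 ± 0.03 (SE; limma, adjusted p = 0.369). The others named were Cse1l, which returns importin alpha to the cytoplasm (-0.06 ± 0.03), Xpot, the exporter of transfer RNA (-0.04 ± 0.03), and Xpo7 (-0.03 ± 0.02). Of 10 further Ran-binding and Rcc1-like genes none passed and 8 lay below 0, with a median of -0.06. Among these, Rcc2 had -0.09 ± 0.03, Rangrf, a Ran-binding protein known as Mog1, -0.07 ± 0.04, Ranbp6 -0.06 ± 0.04 and Rcbtb1 -0.06 ± 0.04.

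The nucleoporin list held the 1 transport gene that rose. Nup93, a scaffold protein of the inner ring of the pore, had values of 9.80, 9.94 and 10.09 in mutants, against 9.31, 9.68 and 9.85 in WT mice, with 11 of 12 mutants above the highest WT mouse. Its log2 fold change was 0.29 ± 0.05 (SE; limma, adjusted p = 0.00106). It was 0.36 over arrays 1 to 12 alone (limma, adjusted p = 0.0584) and 0.23 over arrays 13 to 24 alone (limma, adjusted p = 0.183), and so did not pass in either set of 12 arrays. The other 22 nucleoporins did not pass, and the median over all 23 was -0.03. Nup133 had a log2 fold change of -0.08 ± 0.03, Aaas, the nucleoporin aladin, -0.06 ± 0.03 and Nup88 -0.06 ± 0.03 (SE; limma, adjusted p between 0.285 and 0.387).

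Of 6 genes of SUMO conjugation, the modification that docks Rangap1 onto Ranbp2, none passed and all 6 lay below 0, with a median of -0.02. Pias1, a SUMO ligase, had -0.04 ± 0.02, Sumo3 -0.05 ± 0.04, Sumo2 -0.03 ± 0.02 and Sae1, a subunit of the activating enzyme, -0.02 ± 0.03 (SE). Of 9 genes of mRNA export, a route that does not use the Ran gradient, none passed and 8 lay below 0, with a median of -0.02. Nxt1 had -0.09 ± 0.06, Thoc2 -0.05 ± 0.03, Nxt2 -0.05 ± 0.04 and Thoc5 -0.03 ± 0.03. Of 6 spindle genes that Ran controls in dividing cells 3 were negative and 3 positive, none passed, and the list had a median of 0.02. Hmmr had 0.07 ± 0.06, Kif22 0.07 ± 0.06, Aurka -0.04 ± 0.05 and Tpx2 0.03 ± 0.07. The WT means of these named spindle genes ran from 4.30 (Hmmr) to 6.03 (Aurka), below the median of every array (6.71 at the lowest). At these levels a change may not be measurable, so their signs are not read.

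**Figure D4:**
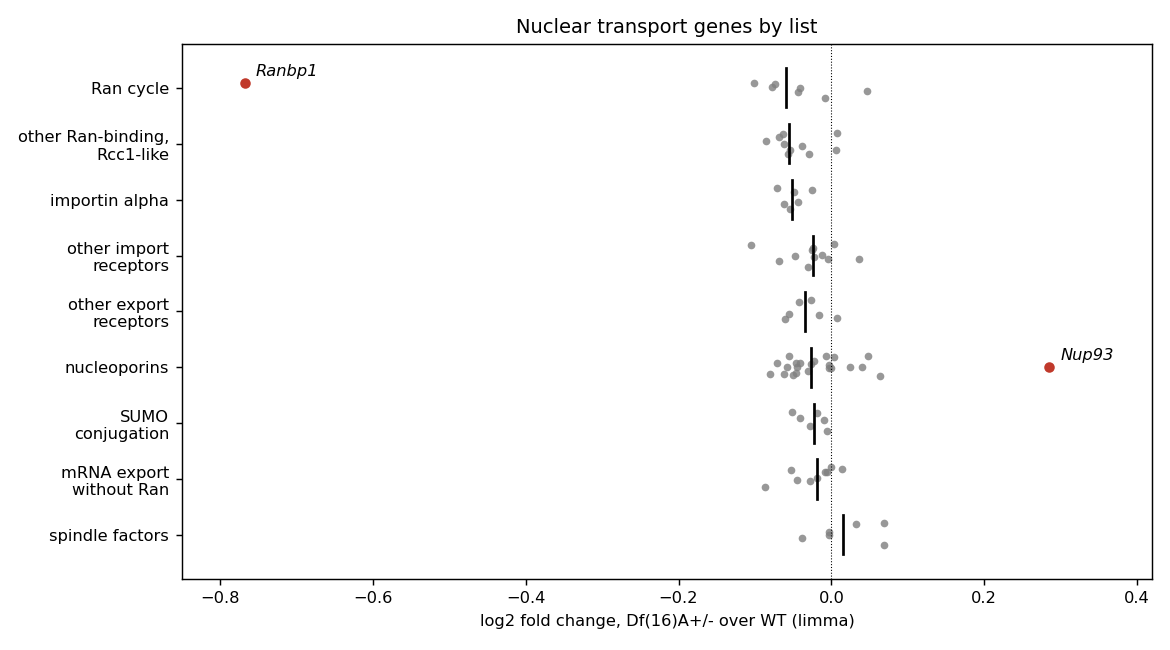
Log2 fold change of Df(16)A+/- over WT mice (horizontal axis) for each measured gene of 9 transport lists (rows); grey points did not pass the limma test, red points did, and black bars are list medians. Ranbp1 (-0.77) and Nup93 (0.29) stand away from the other points, which lie between -0.10 and 0.07.

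Markers of other cell types are given beside the small values of the partners. None of 40 markers passed the test, which 0.76% of all genes passed. At an unadjusted limma p under 0.05, 6 of the 40 differed, where 11.9% of all genes did. Those were 3 blood and granulocyte markers and 1 excitatory neuron marker, all lower, and 2 striatal markers, both higher. The median log2 fold change was -0.56 for 4 blood and granulocyte markers, whose mean level ranged from 5.69 to 6.68 in mutants and from 6.08 to 8.94 in WT mice. It was 0.11 for 4 striatal markers, with mean levels of 7.59 to 7.87 in mutants and 7.52 to 7.79 in WT mice. It was -0.04 for 4 oligodendrocyte markers and between -0.02 and 0.04 for the lists of excitatory neurons, interneurons, astrocytes, microglia and endothelium. Their part in the values of the Ran cycle genes was not tested.

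Over 24 arrays, the genes whose levels were most like those of Ranbp1 were Ufd1 (Pearson correlation 0.985), Dgcr2 (0.981), Ess2 (0.978), Zdhhc8 (0.977) and 2510002D24Rik (0.976), all of the deleted interval. These correlations hold the genotype difference that all 5 share. After the genotype means were removed, the highest correlations with Ranbp1 over 24 mice were those of Olfr874 (0.714), Ltbp3 (0.710), Nuak2 (0.663), Scara3 (0.656) and Zbtb39 (0.649), none of them listed for the interval. They were the highest among all other measured genes, and the points share arrays and mice.

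Among the Ran cycle genes, deviations from the genotype means were compared pair by pair. The 28 pairs of members had correlations between -0.50 and 0.38, with a median of 0.0045. The lowest over the 24 mice was that of Ranbp1 with Ranbp2 (-0.50), with -0.48 over the 12 mutants and -0.53 over the 12 WT mice. Of the partners, Kpnb1 had the highest correlation with Ranbp1 over the 24 mice (0.36), with 0.32 over the mutants and 0.40 over the WT mice. Those of Ranbp1 with Rcc1 (0.53 in mutants and -0.08 in WT mice), Rangap1 (0.27 in mutants and -0.19 in WT mice) and Xpo1 (-0.52 in mutants and 0.02 in WT mice) had opposite signs in the genotypes. All of these are descriptions over 12 mice and were not tested.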

How the data were processed

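The deposited table holds log2 expression values for 35556 probe sets on 24 arrays, between 1.82 and 14.49. The authors used RMA, per the submitters' processing notes; which RMA version, settings and genome build stood behind the values is not given in the sources used here. Per the labels' protocols, 100 ng of total RNA was labelled for each array. No detection call is used, and the number of arrays limits the precision.

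Names came from the platform's probe annotation, where 21219 probe sets had 1 symbol, 1880 several and 12457 none here. The brightest single-symbol row stood for a gene (18821 genes). Genotypes were compared with limma 3.58.1 in R 4.3.3 (lmFit, eBayes, genotype as sole term, Benjamini-Hochberg over all genes), without a filter on low values. The step was tested on simulated data with independent noise for each gene. Such data lack the variation shared across genes on the real arrays, so the simulation does not cover it. Promoter sequences are RefSeq's. The labels name replicates without stating separate litters, so p-values measure the spread between these samples.

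The members and lists were chosen with earlier results of these data known. Named genes were all members, up to 4 of each transport list by smallest p, Trmt2a and the deleted genes closest to and farthest from Ranbp1 in fold change, and the 5 most correlated genes by each measure. Genotypes share replicate numbers 1 to 12. Same-numbered mice had correlations of deviations between -0.08 and 0.31, with a median of 0.10, against a median of -0.01 for differently numbered mice. These values do not settle whether the numbers mark pairs. The main fit did not use the numbers, and a fit with the replicate number as a block is given below.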

Additional observations from a re-analysis of the deposited data

How the results depend on the processing

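Ranbp1 stayed lower and past the threshold in all 37 alternatives, with a log2 fold change between -0.80 and -0.75, and no partner passed in any of them. With the replicate block, the log2 fold change of Ranbp1 was -0.77 (limma, adjusted p = 5.31e-10), no partner passed, and 110 genes were higher and 37 lower over all genes; 2 of 12 mutants correlated best with the WT mouse of their own number. Rangap1, not called in any setting, turned to 0.0023 after quantile normalization and 0.0052 after median centring. Rcc1 has no value under the filter at the median level, which it does not reach. The number of nucleoporins called was 0 in arrays 1 to 12 alone and 0 in arrays 13 to 24 alone, where Nup93 did not pass. No deleted gene fell more than Ranbp1 (0 of 25) in arrays 13 to 24 alone, against 2 over all arrays. Over all genes, the count of lower genes, 43 as reported, was 66 with a variance trend and 66 for genes at or above the lower quartile. It was 67 at or above the median level (with 48 higher in place of 100), 23 in arrays 1 to 12 alone (35 higher) and 22 in arrays 13 to 24 alone (35 higher). Fewer genes or fewer arrays entered these fits, except the trend. What moved the counts was not tested for any of them. Leaving out each mouse in turn gave 82 to 108 higher and 37 to 56 lower genes. The setting without the mutants of replicates 5, 9 and 10 was chosen after the data were seen; it gave 96 higher and 33 lower genes, and left 57 of 82 transport genes below 0. With 12 arrays per genotype, the 95% intervals of the 7 partners reached from -0.19 to 0.13 on the log2 scale, and smaller changes remain possible for each.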
